A study of Mus musculus with 16 samples.

Results

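RNAPOL2, the phosphorylated form of RNA polymerase II, was mapped by chromatin immunoprecipitation and sequencing (ChIP-seq) in mouse clear cell sarcoma (mCCS), and all 20375 RNAPOL2 peaks are described here, out of 58592 peaks in the 3 lists of the series. Every peak of the RNAPOL2 list was included, with no threshold on width or score. Clear cell sarcoma arises in the soft tissues of the limbs, and its driver is EWSR1::ATF1, a chimeric protein in which the front of EWSR1, an RNA-binding protein, is joined to the end of ATF1 that binds DNA. The tumors came from mice that carried a V5-tagged human EWSR1::ATF1 complementary DNA with IRES-EGFP in the Rosa26 locus, silenced by a loxP-flanked stop, which was released by injecting the TATCre protein into the hindlimb of young animals on a mixed 129/SvJ and C57Bl/6 background. All 16 samples were tumors of the genotype EWSR1::ATF1, without normal tissue, and comprised 4 RNAPOL2, 4 H3K27ac, 4 V5 and 4 input samples. Whole tumors were ground, so chromatin of host cells was not separated from that of tumor cells, and fewer cells of a type cannot be told apart from less polymerase per cell. Each antibody had 1 list of peaks, so there were no replicate values, the depth behind a peak is unknown, and the peaks rather than the animals were counted.

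RNA polymerase II transcribes all protein-coding genes, most long noncoding RNAs and most small nuclear RNAs (snRNAs) of the splicing machinery. It assembles at the transcription start site (TSS), is phosphorylated on the tail of its largest subunit, often pauses just downstream of the start, and is then released into the gene body. Past the cleavage site of the transcript it slows down and is removed from the template. Peaks of phosphorylated polymerase can therefore lie over starts, inside genes and past gene ends. H3K27ac, an acetylation of histone H3 at active promoters and enhancers, served as the comparison.

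The highest-scored RNAPOL2 peaks lay over genes of the spliceosomal snRNAs U1 and U2, and their sequences are given because near-identical copies lead the list. The score is a whole number per peak that was deposited with the list, and its scale is not stated. Rnu1a1, a gene of U1, which recognizes the 5′ splice site, lay at chr11:87422867-87423030 (GRCm38, plus strand) and had the highest score of the list, 23501. Rnu2-10, a gene of U2, which pairs with the branch point of introns, lay at chr11:101658238-101658428 (plus strand) and had a score of 14212. The genes read as follows.
Rnu1a1: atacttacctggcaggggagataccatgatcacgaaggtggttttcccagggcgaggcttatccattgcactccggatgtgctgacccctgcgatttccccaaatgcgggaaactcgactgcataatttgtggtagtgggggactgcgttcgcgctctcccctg
Rnu2-10: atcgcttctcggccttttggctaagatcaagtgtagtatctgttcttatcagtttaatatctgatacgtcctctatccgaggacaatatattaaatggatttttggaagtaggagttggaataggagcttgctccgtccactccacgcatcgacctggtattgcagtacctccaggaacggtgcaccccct

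The 164-base Rnu1a1 sequence occurred 7 times on the chromosomes, and all 7 copies lay under an RNAPOL2 peak. The 191-base Rnu2-10 sequence occurred 4 times, again with all 4 copies under a peak, and so did the 215-base sequence of Rnu3b1, a gene of the U3 small nucleolar RNA that acts in ribosome assembly. Reads inside such copies could not be assigned to 1 gene from sequence alone, and how the alignment placed them is not given in the sources used here. The scores of the single copies are therefore uncertain. The 100 bases before the start were identical in the 4 U3 genes and matched at 98 of 100 positions in the 3 U2 genes, whereas several of the U1 genes differed there. Each distinct sequence of the U1 and U2 genes is shown once, with the letters ACCGT in capitals.
Rnu1a1: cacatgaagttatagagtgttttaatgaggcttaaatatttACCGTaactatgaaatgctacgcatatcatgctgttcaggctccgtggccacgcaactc
Gm22634: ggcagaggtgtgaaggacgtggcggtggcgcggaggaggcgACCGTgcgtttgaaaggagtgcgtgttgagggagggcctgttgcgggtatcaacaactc
Gm22513: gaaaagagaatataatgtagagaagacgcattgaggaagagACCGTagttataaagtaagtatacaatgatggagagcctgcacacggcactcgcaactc
Gm22068: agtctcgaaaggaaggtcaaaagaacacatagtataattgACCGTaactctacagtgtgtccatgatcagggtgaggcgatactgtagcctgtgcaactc
Gm23804: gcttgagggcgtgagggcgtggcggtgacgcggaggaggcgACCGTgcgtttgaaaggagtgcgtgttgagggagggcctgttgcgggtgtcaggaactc
Gm23971: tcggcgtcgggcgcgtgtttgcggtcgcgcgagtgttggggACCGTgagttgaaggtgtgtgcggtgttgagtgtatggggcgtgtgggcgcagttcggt
Rnu2-10: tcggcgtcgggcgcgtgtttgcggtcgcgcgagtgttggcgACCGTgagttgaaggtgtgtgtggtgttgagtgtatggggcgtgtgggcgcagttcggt

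Gm22634, Gm22513, Gm22068 and Gm23804 are U1 genes and Gm23971 is a U2 gene. Gm22317 had the same 100 bases as Gm22634, Gm24305 the same as Gm23804, and Gm24950 the same as Gm23971. The 7 U1 genes among the highest-scored small RNA genes had 5 distinct upstream sequences, which were identical at 12 of 100 positions. The letters ACCGT began 59 or 60 bases before the start in all of them and in the 3 U2 genes. On either strand ACCGT occurred in 18 of the 47 upstream windows of snRNA genes with a peak over the start outside chromosome 18 (38.3%), in 33 of 1295 windows of the other snRNA genes (2.55%) and in 5.02% of 20150 windows of coding promoters of the same length. The letters were chosen after these sequences were seen, and the copies are related by descent.

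The RNAPOL2 peaks had a median width of 960 bp (quartiles 720 and 1480) and together covered 30.8 Mb, or 1.13% of the chromosomes. The distribution had a long upper tail. There were 736 peaks of at least 5 kb, which were 3.61% of the peaks and held 23.2% of the covered bases, and 48 peaks of at least 20 kb. The widest reached 113730 bp. Scores ran from 23 to 23501 with a median of 246 (quartiles 71 and 943). The top 10% of the peaks held 46.2% of the summed score, a share that depends on the unstated scale. Width and score were only loosely related (Spearman correlation 0.320 across 20375 peaks, a description, since both come from the same calling).

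More than 1 in 2 RNAPOL2 peaks covered a TSS of GENCODE vM21. The count was 11726 peaks, or 57.6% (95% Wilson interval 56.9 to 58.2), and the intervals cover counting error only, since neighbouring peaks are not independent. A further 2929 peaks (14.4%) lay within 3 kb of a TSS without covering one. Beyond 3 kb, 1797 peaks (8.82% of all) touched the end of a coding gene, defined as 1 kb before to 5 kb past its 3′ end, 3140 (15.4%) lay elsewhere in a gene body, and 783 (3.84%) were intergenic. By bases rather than peaks, the promoter windows held 61.7% of the covered sequence against 15.1% of the chromosomes, a 4.09-fold excess. Gene-end windows held 12.7% against 2.92% (4.35-fold). Gene bodies held 22.1% against 33.6% (0.658-fold), and intergenic sequence held 3.53% against 48.5% (0.0728-fold).

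The classes separated by score far more than by width. Peaks that covered a TSS had a median score of 768, whereas the medians were 71 for the other peaks within 3 kb, 63 for gene ends, 58 for gene bodies and 142 for intergenic peaks. Median widths ranged only from 780 bp in intergenic peaks to 1060 bp at gene ends. All 100 highest-scored peaks and 984 of the highest 1000 covered a TSS. When the list was cut by score into 5 groups of like size, the share over a TSS was 8.17% in the lowest group, 21.7%, 65.9% and 93.1% in the next, and 97.3% in the highest. By width the share had no single direction. It was 54.6% under 1 kb, 65.3% from 1 to 2 kb, 48.8% from 2 to 5 kb, 53.2% from 5 to 10 kb and 70.6% at 10 kb and above.

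**Figure D1:**
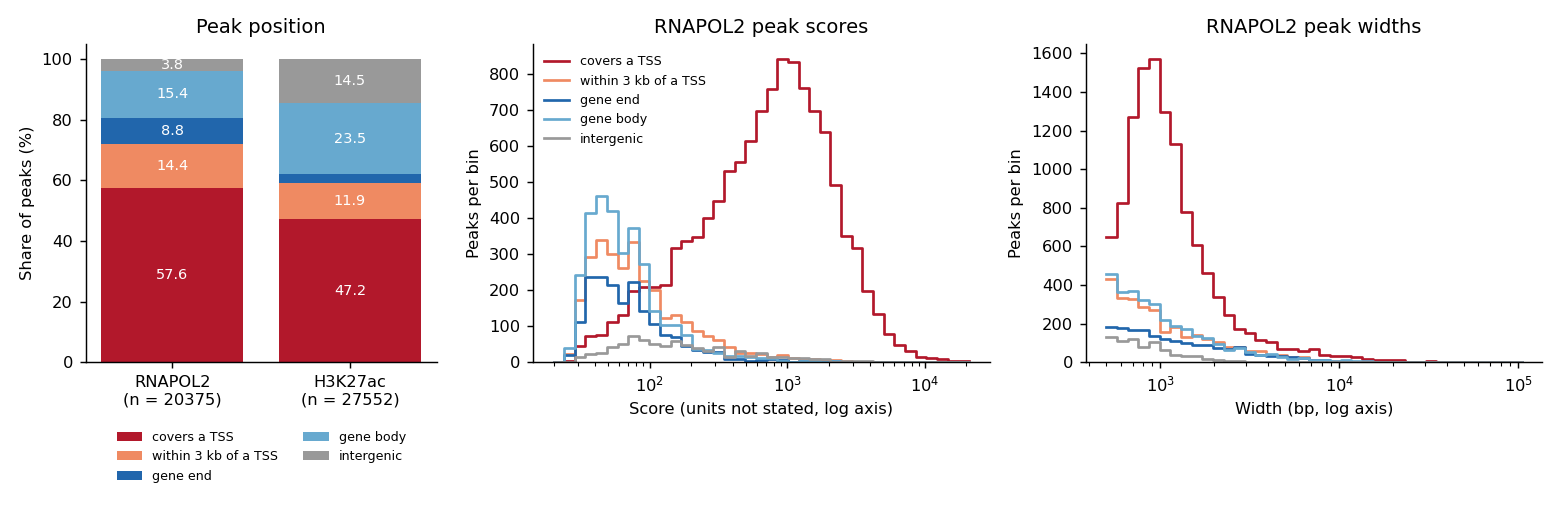
Position, score and width of RNAPOL2 peaks. Left, stacked shares (%) of 20375 RNAPOL2 and 27552 H3K27ac peaks in 5 position classes; middle and right, number of RNAPOL2 peaks per bin of score and of width (bp) on log axes, by class. Peaks over a TSS center on a score of 768 and the gene-end and gene-body peaks on 63 and 58, while the widths of the classes overlap.

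Compared with H3K27ac, RNAPOL2 peaks were placed more often over starts and gene ends and less often between genes. A TSS was covered by 57.6% of RNAPOL2 and 47.2% of H3K27ac peaks (Fisher's exact test, two-sided, adjusted p = 3.71e-111, odds ratio 1.52, 95% interval 1.46 to 1.57). Among peaks beyond 3 kb of a TSS, 31.4% of RNAPOL2 and 7.13% of H3K27ac peaks lay at gene ends (odds ratio 5.97, interval 5.45 to 6.53). In the upper 50% of both lists by score these odds ratios were 3.58 for a TSS and 2.97 for gene ends. Intergenic positions made up 13.7% of RNAPOL2 and 35.5% of H3K27ac peaks beyond 3 kb (Fisher's exact test, adjusted p = 9.62e-212, odds ratio 0.289, 95% interval 0.265 to 0.314). The intergenic difference turned in that upper 50%, where the odds ratio was 1.31 (interval 1.08 to 1.58). The p-values describe 2 lists, not the spread between tumors, and the broad option with which H3K27ac peaks were called cannot be told apart from the antibody.

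H3K27ac accompanied most RNAPOL2 peaks at starts but not at gene ends. Of the peaks that covered a TSS, 93.3% overlapped an H3K27ac peak, against 44.3% of all other RNAPOL2 peaks (odds ratio 17.6, 95% interval 16.1 to 19.1, by the same exact test). The odds ratio was 6.16 (interval 5.15 to 7.38) in the upper 50% by score and 8.04 (interval 7.48 to 8.64) among peaks under 2 kb wide. Among those others the overlap was 86.7% for intergenic peaks, 49.2% in gene bodies, 43.4% within 3 kb of a TSS and 18.9% at gene ends. Overlap also rose with score, from 25.7% in the lowest of the 5 score groups to 99.9% in the highest.

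RNAPOL2 marked the starts of 11171 of 21938 protein-coding genes (50.9%, interval 50.3 to 51.6). Their TSS peaks had a median score of 920 (quartiles 461 and 1637.5). Antisense genes had a peak in 20.6% of 2959 cases and lincRNA genes in 7.19% of 5854, whereas lncRNAs annotated to share a bidirectional promoter had one in 77.4% of 190 cases. Processed pseudogenes, which usually lack a promoter of their own, had one in only 0.584% of 9940 cases. Of 1383 annotated snRNA genes 48 (3.47%) had a TSS peak, but their median score was 3670.5. The 117 snoRNA genes with a peak (7.76% of 1507) had a median score of 4023, and many snoRNAs lie inside host genes whose promoter peak can cover them. Over genes of every biotype the share was 24.4% of 55413.

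Coding genes in divergent pairs, with starts within 1 kb on opposite strands, had a TSS peak more often than other coding genes. The shares were 89.5% of 1481 genes (interval 87.9 to 91.0) and 48.1% of 20457 genes (interval 47.4 to 48.8). A single peak spanned both starts in 634 of the 747 pairs (84.9%). At the other extreme, 1022 coding genes had 2 or more separate TSS peaks. Tcf4, a basic helix-loop-helix transcription factor with many annotated starts, had 9. Arap1, Nisch and Pde10a, the last a cyclic nucleotide phosphodiesterase, had 7 each.

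Chromosomes differed in the density of peaks. The autosomes together had 8.13 peaks per Mb and TSS peaks at 52.4% of their coding genes, and chromosome 11 had 14.0 peaks per Mb and 58.9%. Chromosome X had 2.04 peaks per Mb, with TSS peaks at 270 of 948 coding genes (28.5%, interval 25.7 to 31.4), below the lowest share of any autosome (42.2%). The median score of chromosome X peaks was 331, against 246 on the autosomes. These medians pool position classes that differ in score, with medians of 768 for peaks over a TSS and 58 for gene bodies. Scores of TSS peaks alone were not compared between chromosome X and the autosomes. The X-linked ribosomal protein genes Rpl10 (2545), Rpl39 (1331), Rps4x (1102) and Rpl36a (1086) scored below the ribosomal protein median of 3102.5. Chromosome Y had 16 peaks and TSS peaks at 3 of 183 coding genes.

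The 10 highest-scored peaks had a median width of 1570 bp, above the upper quartile of the whole list (1480 bp). Of the 10, 7 covered snRNA genes and 6 lay on chromosome 11. After Rnu1a1 came the U1 genes Gm22634 (score 23102), Gm22317 (22101) and Gm22513 (22048), all within a cluster on chromosome 12. The peak of Gm22513 at chr12:54695401-54697600 also covered the start of Eapp, an E2F-associated protein gene. The U2 genes Gm23971 (18966) and Gm24950 (18423) lay close to Rnu2-10 on chromosome 11. Gm22068, a U1 gene (16996), and Rnu3b1, a U3 gene (15648), had peaks that overlapped Tex14 on chromosome 11, as did the peaks of Rnu1a1 and of the other U3 genes, and the peak of Gm22068 also covered a start of Tex14. Only Jund and Polr2a stood in the top 10 without a small RNA gene.

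Jund, a member of the AP-1 family of transcription factors, had a score of 18012 over a peak of 5.46 kb that enclosed the whole gene. Polr2a, which encodes the largest subunit of RNA polymerase II itself, had a score of 17186 over a peak of 1.89 kb at its start (chr11:69757871-69759760). Among the next 10 were H3f3b (14824), which encodes the replication-independent histone H3.3, and Malat1 (14247), an abundant nuclear long noncoding RNA. The clustered histone genes Hist2h3c2 and Hist2h2aa2 shared a peak with a score of 14346. Errfi1 (12793), a feedback inhibitor of the EGF receptor, and Eif1 (12183), a factor that selects the start codon, were also in this group. Of the 20 highest peaks 8 covered snRNA genes, 4 covered snoRNA genes and 2 covered replication-dependent histone genes, and all 20 overlapped H3K27ac.

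**Figure D2:**
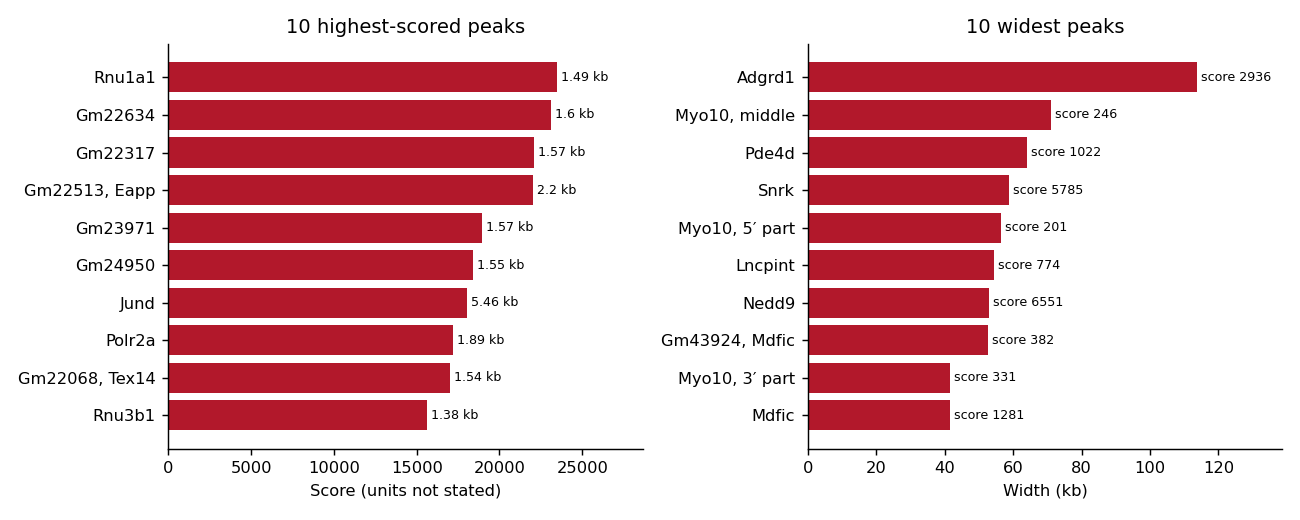
The 10 RNAPOL2 peaks with the highest score and the 10 widest, named by the gene whose TSS they cover. Bars give the score (left, units not stated) or the width in kb (right), and the text beside each bar gives the other measure; the widths at left run from 1.38 to 5.46 kb, and no peak is in both panels.

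Core promoters of high-scored coding genes are shown because some of them carry the letters of a TATA box. Of the 12 highest-scored coding genes, histone clusters and an autosome that was not searched left aside, 4 held TATAAA in the 100 bases before the start, 3 of them between 45 and 16 bases before it. Those 4 (Polr2a, H3f3b, Errfi1 and Tob1) are shown with Eif1, which has none. The other 7 without it were Eapp and Iqcn, which share the peaks of Gm22513 and Jund, and Srsf7, Brd2, H2-DMa, Rsrp1 and Ctnnb1. The 100 bases before the RefSeq start (GRCm38.p6) are given for Polr2a (chr11:69758634-69758733, minus strand), H3f3b (chr11:116024505-116024604, minus strand), Errfi1 (chr4:150854970-150855069, plus strand), Tob1 (chr11:94211354-94211453, plus strand) and Eif1 (chr11:100319849-100319948, plus strand). Capitals mark the TATA box letters TATAAA, the CCAAT box, the GC box letters GGGCGG and the ATF/CREB motif TGACGTCA, each on either strand. Tob1, an antiproliferative gene, had a score of 11869, and its TATAAA is the one outside the window of 45 to 16 bases.
Polr2a: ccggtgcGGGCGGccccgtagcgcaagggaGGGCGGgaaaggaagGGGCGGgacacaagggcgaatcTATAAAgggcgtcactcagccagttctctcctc
H3f3b: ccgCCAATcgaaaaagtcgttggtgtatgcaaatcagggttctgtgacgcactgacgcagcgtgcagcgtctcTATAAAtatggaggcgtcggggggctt
Errfi1: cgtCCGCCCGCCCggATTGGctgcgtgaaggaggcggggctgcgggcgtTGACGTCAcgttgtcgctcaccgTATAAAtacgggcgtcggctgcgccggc
Tob1: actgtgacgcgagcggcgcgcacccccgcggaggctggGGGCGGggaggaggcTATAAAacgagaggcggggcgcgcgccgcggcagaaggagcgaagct
Eif1: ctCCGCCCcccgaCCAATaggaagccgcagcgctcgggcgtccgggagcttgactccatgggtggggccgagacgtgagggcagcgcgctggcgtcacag

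Across 20150 RefSeq promoters of 16522 coding genes matched by symbol, each 300 bases long, 9879 had their start under an RNAPOL2 peak. These were rich in CpG, with a median of 23 CpG dinucleotides against 4 in the promoters whose start was under no peak. GGGCGG, the core of the GC box, was found on either strand in 71.8% of the covered and 24.6% of the uncovered promoters (47.8% of all). TGACGTCA, the ATF/CREB motif, was found in 3.58% and 1.09% (2.31% of all), and CCAAT in 38.0% and 37.7%. TATAAA had the opposite distribution, with 5.17% of the covered and 18.9% of the uncovered promoters (12.1% of all). At the top of the list it was frequent again: of the 100 highest-scored promoters, which belong to 79 genes, 25 held TATAAA and 10 held it on the gene strand between 45 and 16 bases before the start, against 0.840% of all covered promoters. Histone clusters and chromosome 18 were left aside for the printed promoters but not in these counts, and the part of histone genes in them was not tested. Each motif was searched separately, a match is a string of letters and not a tested site, and genes that share a peak share its score.

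Around the start RNAPOL2 peaks extended further in the direction of transcription. For 5569 peaks over the starts of a single coding gene, with no start of another gene within 3 kb, the median reach from the TSS was 516 bp downstream (quartiles 413 and 775) and 372 bp upstream (quartiles 266 and 522). Of these peaks 74.9% (interval 73.7 to 76.0) reached further downstream, and the median difference was 163 bp. Long extensions were mostly downstream, with 79 peaks that reached at least 5 kb downstream and 12 that reached as far upstream. In the highest of 5 score groups of these peaks the median reach was 774 bp downstream and 494 bp upstream. In that group 54 peaks reached 5 kb or more downstream and 5 reached as far upstream. The lowest group went the other way, with 1 such peak downstream and 4 upstream, whereas the groups between had more downstream. Among the longest single-gene extensions were Adgrd1, Mdfic and Nr4a3, whose peaks reached 113340, 40959 and 39147 bp downstream of the start and 389, 520 and 802 bp upstream of it.

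Gene ends were examined in coding genes of at least 10 kb with no other coding gene within 10 kb. There were 2420 such genes with a TSS peak and 2684 without. A peak at the gene end was present in 560 of the genes with a TSS peak (23.1%, interval 21.5 to 24.9) and in 28 of those without (1.04%). In 5 groups of rising TSS score the share was 5.79%, 11.1%, 16.0%, 27.3% and 55.9%, so gene-end peaks accompanied high promoter scores. It was lower in longer genes, with 30.6% of genes of 10 to 20 kb and 15.6% of genes of 100 kb or more. With the lower 50% of the RNAPOL2 list by score left out, the gene-end share was 4.08%.

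Along the 2420 genes with a TSS peak, the peaks covered 86.6% of the genes at the start and a maximum of 88.3% at 200 bp downstream. High coverage at the start follows from this choice of genes. Coverage fell to 2.69% at 40% of the gene length. It rose again to 8.51% at the annotated end and to 15.6% at 1 kb past it, and was 2.73% at 5 kb past it. H3K27ac peaks covered 87.9% of the same genes at the start but 1.24% at the end and 2.44% at 1 kb past it. Over the whole list, the middles of gene-end peaks lay a median of 1178 bp past the annotated end (quartiles 397 and 2413), a position set in part by the window, which reaches 5 kb past the end and only 1 kb before it. Of the gene-end peaks, including those at the ends of more than 1 gene, 94.8% belonged to a gene with a TSS peak, beside 50.9% of all coding genes.

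**Figure D3:**
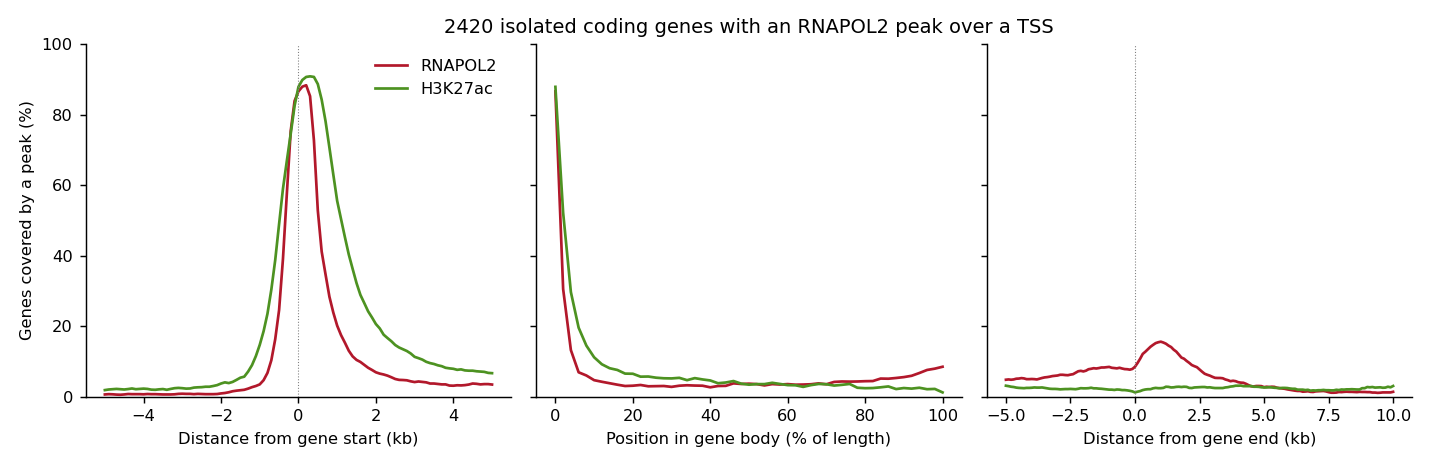
Share of 2420 isolated coding genes, chosen for an RNAPOL2 peak over a TSS, that were covered by a peak (y axis, %) by distance from the gene start (kb), position in the gene body (% of length) and distance from the gene end (kb). RNAPOL2 is highest at 200 bp past the start (88.3%) and has a lower summit of 15.6% at 1 kb past the end, where H3K27ac covers 2.44%.

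The highest-scored gene-end peaks lay at Gm3448 (score 2578), Zfp771 (2507), a zinc finger gene, Fam120a (2437), 9030025P20Rik (2303) and the neighbours Duox1 and Shf (2200). All 5 overlapped an H3K27ac peak, unlike most gene-end peaks. The widest gene-end peaks measured 22.96 kb at Bach1 (score 235), a transcriptional repressor of heme-responsive genes, and 21.28 kb at Adarb1 (328), an RNA-editing enzyme gene. Both scores lay above the upper quartile of gene-end peaks (98) and below those of the 5 peaks named before. The Adarb1 peak overlapped no H3K27ac peak.

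Gene-body peaks had the lowest median score of the classes (58), and most lay in genes with a marked start. Their median width of 890 bp was close to the 960 bp of the whole list. Of 2885 that overlapped a single coding gene, 96.0% lay in a gene with a TSS peak, beside 50.9% of all coding genes. Coding genes with a TSS peak were also longer, with a median of 24.3 kb against 11.2 kb for those without. The 2885 peaks were found throughout the gene, with a median position at 60.1% of its length, and 26.5% of all gene-body peaks touched an exon. The highest-scored were at Abi1 (score 5341, 14.41 kb wide), which encodes an adaptor of actin regulation, and Pde4b (4634), a cAMP phosphodiesterase. Those at Gm49539 (4161), Dnajc15 (3159) and Prdm2 (2667) followed. The 783 intergenic peaks lay a median of 13.4 kb from the nearest TSS, and 69 of them (8.81%) lay more than 50 kb away. The highest-scored intergenic peak (4161) was 7491 bp from the start of Gm11708, and the others lay nearest to Rpl30-ps6, Zfp239, Gm21182 and Gm44734. The widest intergenic peaks included one of 11.32 kb whose nearest TSS, 22240 bp away, was that of Adgrd1.

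The widest RNAPOL2 peaks were a different set from the highest-scored. None of the 10 widest was among the 10 highest-scored, and of the 100 widest 8 were among the 100 highest-scored. The widest peak enclosed Adgrd1, an adhesion G protein-coupled receptor gene, from 389 bp before its start to 5491 bp past its end (chr5:129096361-129210090, score 2936). Myo10, an unconventional myosin of filopodia, held 3 of the 10 widest peaks, of 71.08, 56.54 and 41.64 kb, with scores of 246, 201 and 331. Pde4d, a cAMP phosphodiesterase, had a peak of 64.2 kb (score 1022) at the 3′ part of its very long gene. Snrk, a serine/threonine kinase of the AMPK-related family, had 58.7 kb (5785), the noncoding RNA gene Lncpint had 54.42 kb (774), and Nedd9, a scaffold protein of focal adhesions, had 52.96 kb (6551). The remaining peaks, of 52.58 kb (382) and 41.48 kb (1281), lay at Mdfic. All 10 covered an annotated TSS and their median score was 898.

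A few coding genes were covered throughout. Of 14164 coding genes of at least 10 kb, 161 had 50% or more of their length under RNAPOL2 peaks, 47 had 90% or more, and 19 were covered from end to end. The 5 longest of the 19 were Adgrd1 (107.85 kb), Snrk (52.4 kb), Ccnd2 (27.03 kb), a D-type cyclin, Plat (25.1 kb), the tissue plasminogen activator, and Fosl2 (22.0 kb), an AP-1 subunit. Col1a1, the main chain of type I collagen, Vegfa, the angiogenic growth factor, Nfil3, a bZIP repressor, and Brd2, a reader of acetylated histones, were in the same group. In all 19 a single peak spanned the gene. It extended a median of 3352 bp past the end and 516 bp before the start, and further past the end in 17 of the 19.

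Other long genes were covered by many separate peaks. The annotated gene with the most was Gm20388, with 114 peaks, but its model spans 4435 kb and many other genes. It was followed by Celf4 (67 peaks), an RNA-binding protein gene, Rab3c (66), a small GTPase of vesicle release, Zmiz1 (58), a transcriptional coactivator, and Fyn (57), a Src-family kinase. Fyn had 73.6% of its 196.5 kb covered, in peaks with a median width of 1.76 kb and a median score of 63, although the peak at its start had a score of 4018. Zmiz1 had 63.0% and Rab3c 59.2% of their length covered, with median scores of 54.5 and 61. Myo10, by contrast, had 99.3% of its 191 kb covered by 5 peaks. H3K27ac peaks covered 26.3% of Fyn, 27.4% of Myo10 and 85.5% of Adgrd1.

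**Figure D4:**
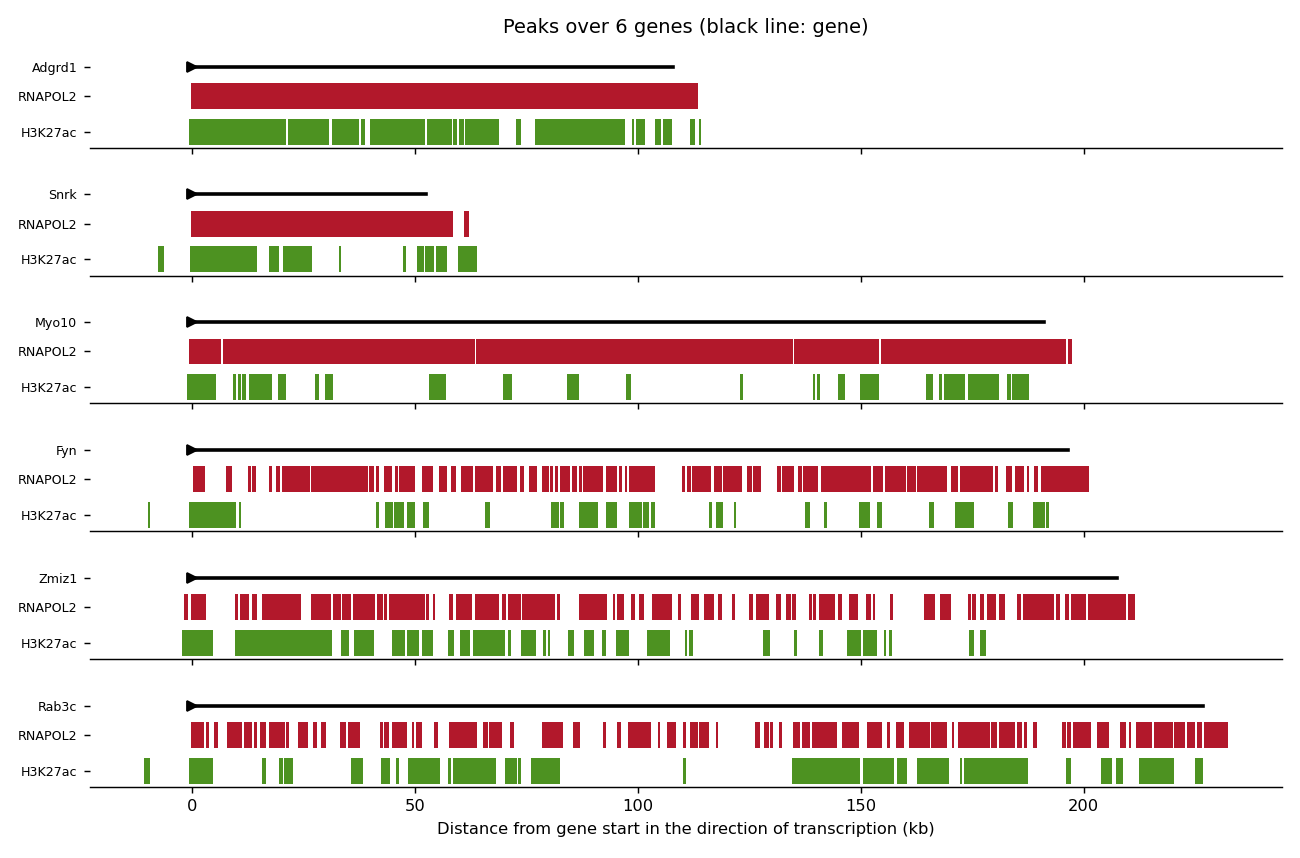
RNAPOL2 (red) and H3K27ac (green) peaks over 6 long genes, by distance from the gene start in the direction of transcription (kb); the black line is the gene and the arrowhead its start. A single RNAPOL2 peak spans Adgrd1 and Snrk, 5 adjoining peaks span Myo10, and 57 to 66 separate peaks lie over Fyn, Zmiz1 and Rab3c.

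The genes of the transcription machinery itself all had RNAPOL2 at their starts. A TSS peak was present at 12 of 12 subunit genes, 17 of 17 genes of pausing and elongation factors and 14 of 14 genes of cleavage and termination factors, beside 50.9% of all coding genes. Median scores in these lists were 1011.5, 1133 and 983, near the 920 of all coding genes with a TSS peak. Single members stood far above. Polr2a was at 17186, while Polr2b, the second-largest subunit, was at 1690 and the other 10 subunit genes lay between 515 and 1390. Hexim1 (5359) encodes an inhibitor of the elongation kinase P-TEFb, and Cdk9 (2137) encodes its catalytic subunit. Pcf11 (5227), a termination factor, had 50.6% of its length covered.

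Housekeeping and stress genes had higher scores. Of the cytosolic ribosomal protein genes 76 of 79 had a TSS peak, beside 50.9% of all coding genes, with a median score of 3102.5, led by Rpl3 (7319), Rplp0 (6221) and Rpl12 (5677). The 3 without were the paralogs Rpl10l, Rpl39l and Rpl3l, which are known for restricted expression, and a peak at the end of Rpl3l covered 0.396% of that gene. An RNAPOL2 peak within 5 kb past the gene end was present at 75 of the 79, beside 24.0% of all coding genes, although peaks of neighbouring genes count there too. All 12 heat shock and chaperone genes had a TSS peak (median score 3444.5), among them Hspa8 (8307), Hspa5 (6249) and Hsp90ab1 (6039). All 14 glycolysis genes had one as well (median 1861.5), with Gapdh (7190) the highest and Pfkm (381), the muscle-type phosphofructokinase, the lowest. Ribosomal protein and heat shock genes have processed copies elsewhere, so part of their reads may be ambiguous.

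Cytoskeleton and matrix genes had TSS peaks in 20 of 20 cases (median score 2858.5), beside 50.9% of all coding genes. Actb (10204) and Actg1 (8583), the cytoplasmic actins, were the highest and were covered from end to end, as were Tubb5, Tmsb4x and Col1a1. Col1a2 had 98.1%, Fn1, the fibronectin gene, 97.7% and Vim, an intermediate filament gene of mesenchymal cells, 89.9% of its length covered. Coverage was far lower at Col4a2 (0.788%), Col6a1 (2.58%) and Col4a1 (3.67%). Flna, Myh9, Tpm1, Col3a1 and Tuba1b had between 26.2% and 47.8%, and the remaining members had between 59.9% and 85.0%. Col6a1 had the lowest score of the list, 344. Coverage from end to end was found in 1.08% of all coding genes, most of them short, with a median length of 2.21 kb.

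Of the immediate early genes, which respond to growth factors, cAMP and stress, 19 of 21 had a TSS peak (median score 3277), beside 50.9% of all coding genes. Jund (18012), Btg2 (8815), Dusp1 (7795) and Junb (6883) were the highest. Peaks covered 7 of the 21 from end to end, beside 1.08% of all coding genes, among them Fos, Junb, Ier2 and Fosl2, and covered 99.1% of Nr4a3, an orphan nuclear receptor gene of 41.3 kb. Egr1 had a score of 803, Egr2 had 127 and Fosb had 235, all below the median of coding genes. Egr3 and Fosl1 had no TSS peak, although a peak away from its start covered 7.26% of Fosl1. The genes singled out by the study all had a TSS peak, 8 of 8, and since they were chosen in part on tumors of this model their count is no independent evidence. They ranged from Crem (8192), a cAMP-responsive transcription factor gene, Junb (6883), Fam43a (6308) and Fos (4346) down to Nono (715) and Runx2 (319).

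Replication-dependent histone genes had a TSS peak in 63 of 67 cases (median score 2868), beside 50.9% of all coding genes. Peaks wholly covered 40 of the 67, whose median length is 0.539 kb, beside 1.08% of all coding genes. The copies of a histone class are near-identical and closely spaced, so single values are uncertain. Hist1h1d, Hist1h1t, Hist1h2aa and Hist1h2ba had no TSS peak, the last 3 being known as testis-type histones. Hist1h1d did have a peak (score 3211) that began 1419 bp from its annotated start and covered 26.7% of its gene model. Of 11 long noncoding RNA genes found in the annotation 8 had a TSS peak, beside 7.19% of lincRNA genes and 24.4% of genes of every biotype, with Malat1 (14247), Neat1 (8999), Gas5 (7800) and Snhg12 (4023) the highest, and all 4 of these were enclosed by their peaks. H19, Miat and Xist had none, and Norad was not found under that symbol.

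Genes expected to be inactive in a sarcoma served as background. None of 12 tissue-restricted genes, such as Alb of liver and Ins2 of pancreas, had a TSS peak, beside 50.9% of all coding genes. Of 1092 olfactory receptor genes only Olfr1033 had one (score 657), of 326 vomeronasal receptor genes only Vmn1r4 (502), and of 56 keratin-associated protein genes none. Both peaks overlapped an H3K27ac peak.

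The label of the tumors was checked against cell type markers. Of 7 melanocytic and neural crest markers, which human clear cell sarcoma typically expresses, Pmel (score 1281) and Mitf (191) had a TSS peak, whereas Sox10, Dct, Tyr, Tyrp1 and Mlana had none. Among markers of other cells a TSS peak was found at Mylpf (1248) of 8 skeletal muscle genes, with none at Acta1, Ckm, Myh1, Myh4, Tnnt3, Myod1 and Myog, Cd68 (715) of 6 leukocyte genes, with none at Ptprc, Csf1r, Adgre1 and Cd3e among the others, and Kdr (529) of 5 endothelial genes, with none at Pecam1, Cdh5, Tek and Vwf. Csf1r and Pecam1 each had 1 RNAPOL2 peak away from their starts, over 5.73% and 0.560% of the gene. Of 5 fibroblast genes Thy1 (270) and Dpt (71) had a peak and Pdgfra, Lum and Dcn had none, and none of 5 epithelial genes (Epcam, Cdh1, Krt5, Krt14 and Krt18) had one. Summed over the lists, 7 of 36 markers had a TSS peak, beside 50.9% of all coding genes, but with 5 to 8 genes a list the intervals of 4 of the 6 lists include that share. H3K27ac lay over the start of 13 of the 36 markers, beside 55.3% of all coding genes. It marked 4 of 5 fibroblast genes (Thy1, Dpt, Dcn and Pdgfra) and 4 of 6 leukocyte genes (Cd68, Ptprc, Csf1r and Cd3e), and of the others Pmel, Mitf, Mylpf, Kdr and Krt14. Dcn, Pdgfra, Ptprc, Csf1r, Cd3e and Krt14 thus had H3K27ac but no RNAPOL2 peak at their starts, and the share of host cells in the tumors was not tested.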

How the data were processed

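ChIP-seq peaks came from mouse tumors, with 4 labelled samples each for RNAPOL2, H3K27ac, V5 and input. Reads were aligned by the authors with BWA 0.7.10-r789 to mm10, duplicates were dropped, and MACS2 2.2.6 called peaks over input (with the broad option for H3K27ac) and cleared of ENCODE denylisted regions. The deposited score is a whole number whose scale is not stated. The methods name more RNAPOL2 samples than the labels, and how replicates were combined for the peak lists is not given in the sources used here (signal tracks were averaged). Positions are other deposited values. Widths were at least 500 bp and coordinates lay on a 10-bp grid.

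TSSs, genes and ends came from GENCODE vM21 (55413 genes and 141730 transcripts on chromosomes 1 to 19, X and Y). Peaks were classed by overlap of at least 1 bp, in the order TSS, within 3 kb of a TSS, coding gene end, gene body and intergenic. Differences in odds were tested by Fisher's exact test (two-sided), adjusted by Benjamini-Hochberg over 4 tests. A p-value below the smallest number that can be stored is not printed. Sequences came from GRCm38 and RefSeq (GRCm38.p6). The V5 list was only counted. Named were the 10 highest-scored and 10 widest peaks, the 5 highest in each class beyond 3 kb, the 5 genes with most peaks, the 5 best covered of at least 10 kb, and up to 4 leading members of each list. Further genes were named after their values were seen. The members and lists were chosen with earlier results of these data known. Overlaps, odds ratios and intervals were tested on simulated data. Python 3.11.15, numpy 2.4.6, pandas 2.3.3, scipy 1.17.1 and matplotlib 3.10.9 were used.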

Additional observations from a re-analysis of the deposited data

How the results depend on the processing

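The 4 odds ratios kept their direction in all alternatives but 1: in the upper 50% of both lists by score, the odds of an intergenic position were 1.31 rather than 0.289, and the cause was not tested. Restriction to peaks under 2 kb, chosen after seeing the data, turned none of them. The upper 50% by score moved the other odds ratios to 3.58 for a TSS, 2.97 for gene ends and 6.16 for H3K27ac overlap, and the restriction to under 2 kb moved the last to 8.04. With the upper 50% of the RNAPOL2 peaks by score, the share over a TSS was 91.8%, within 3 kb 95.01%, at gene ends 1.13%, in gene bodies 1.51%, intergenic 2.35%, the median width 1040 bp, and the gene-end share of isolated genes 4.08%. With coding genes only, the share over a TSS was 54.4%, within 3 kb 66.4%, in gene bodies 14.6% and intergenic 4.65%. With the middle base of the peak, these shares were 47.4%, 68.5%, 17.6% and 4.21%, and 9.71% at gene ends. At least 100 bp on each side of the TSS gave 56.5%. Windows of 1 kb and 5 kb gave 63.0% and 78.0% near a TSS. Gene ends of 0 to 3 kb gave 6.91%, 16.7% in gene bodies and 20.6% of isolated genes. Gene ends up to 10 kb gave 10.1% and 3.29% intergenic, and ends of every biotype 10.1%. Peaks over a TSS had a median width of 1000 bp, and genes with a single TSS a median difference in reach of 147 bp. Of 49 recomputed values, 21 stayed within their interval, direction and threshold or 1.5 times their count, 27 moved further and 1 reversed. No paired analysis was possible because each antibody has 1 list with no values per sample, and no replicate could be left out for the same reason.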
